A study of Homo sapiens with 18 samples.

Results

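The genes described here are 8 regulators and parts of the anaphase-promoting complex (APC/C) out of the 26249 genes in the deposited tables: UBE2C, UBE2S, CDC20, FZR1, FBXO5, PTTG1, ESPL1 and ANAPC11. They were taken by gene symbol, and all 8 were present in every library. The set was selected on the level of UBE2C, which was low in XG1 and high in AMO1, so every comparison between the lines without inhibitor is given as a description, with no test. The APC/C is a ubiquitin ligase that marks mitotic proteins for destruction by the proteasome, which lets chromosomes separate and cells leave mitosis. CDC20 and FZR1 (also called CDH1) are its coactivators and bring substrates to it, UBE2C starts ubiquitin chains, UBE2S lengthens them, and ANAPC11 is the RING subunit that binds the charged ubiquitin-conjugating enzyme. FBXO5 (EMI1) inhibits the complex, PTTG1 (securin) is a substrate that holds the protease separase inactive, and ESPL1 is separase itself, which cuts cohesin.

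XG1 and AMO1 are human cell lines, both labelled multiple myeloma, a cancer of plasma cells. Each was kept for 24 h in the solvent DMSO or in 100 nM or 1000 nM of YKL-5-124, an inhibitor of CDK7, the kinase that activates other cyclin-dependent kinases and phosphorylates RNA polymerase II. Each of the 6 groups had 3 libraries, 18 in all, made from total RNA by a 3' messenger RNA method (QuantSeq), and the series title calls the lines resistant without naming to what. The labels do not say that replicates were separate cultures, so p-values measure only the spread between these libraries. Levels are in FPKM, which divides by gene length although a 3' read does not depend on it, so levels of different genes are not compared.

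The summed gene values ran from 1442940 to 1553910 FPKM in AMO1 in DMSO and from 431965 to 686266 at 1000 nM, where replicate 2 was the lowest. In XG1 they ran from 1221590 to 1425720 in DMSO and from 902520 to 1036930 at 1000 nM. At 1000 nM the median tested gene changed by -0.77 in log2(FPKM + 1) in AMO1 and by -0.15 in XG1. Each change is therefore given on the deposited scale and, where the call differs, on a relative scale. On that scale each library is divided by its median-ratio size factor. The files give no read depth. The markers of plasma cells stood at 10 FPKM or more for 7 of 7 genes in AMO1, with a summed level of 8138 to 9143 FPKM in DMSO. In the libraries labelled XG1 only 2 of 7 did, IRF4 and PRDM1 were under 1 FPKM, and the sum was 90.7 to 144 FPKM in DMSO. All 6 erythroid markers stood at 10 FPKM or more in XG1, with a sum of 3436 to 3790 FPKM in DMSO, and all 6 were under 1 FPKM in AMO1. The part of this difference in the results below was not tested.

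UBE2C was the member with the widest range. In the AMO1 DMSO libraries it stood at 1054, 1233 and 1142 FPKM, and in the XG1 DMSO libraries at 7.48, 5.78 and 2.80 FPKM. Every AMO1 library was far above every XG1 library, and the ratio of the means was 214. By the difference of mean log2(FPKM + 1), 7.57, UBE2C ranked 13 of 12792 genes from the highest in AMO1. The XG1 values were nevertheless above the library floors of 0.0711 to 0.158 FPKM, the lowest value that a library gave to undetected genes, in all 9 XG1 libraries. The XG1 mean of UBE2C was 0.468% of the AMO1 mean. Other genes high in AMO1 stood at similar shares in the XG1 DMSO libraries, among them the plasma cell markers SDC1 (24.2 against 5067 FPKM, 0.478%), MZB1 (0.415%), JCHAIN (0.284%), TNFRSF17 (0.259%) and IRF4 (0.687%), while PRDM1 stood at 2.24% and XBP1 at 38.7%. Whether the low UBE2C values in XG1 come from those cells or from reads of other libraries was not tested, and this holds for each XG1 value of UBE2C below.

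The genes that flank UBE2C in RefSeq (GRCh38.p14) do not overlap it. DNTTIP1, a subunit of a histone deacetylase complex, had means of 36.9 ± 4.24 FPKM (SD, n = 3) in XG1 and 40.4 ± 2.998 in AMO1 in DMSO. TNNC2, a troponin of fast skeletal muscle, was near the floor in both lines, at 0.133 FPKM in XG1 and 0.163 in AMO1, too low to show such a gap. The large line difference of UBE2C was thus not seen in DNTTIP1, the neighbor with a measurable level.

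Of the other 7 members, only UBE2S was also higher in AMO1 without overlap. UBE2S, which acts after UBE2C on the same chains, stood at 11.2, 15.7 and 10.00 FPKM against 4.16, 4.30 and 4.09 in XG1. CDC20 was slightly lower in AMO1, at 89.0, 103 and 84.6 FPKM against 110.4, 104.4 and 119, and the groups touched without overlapping. FBXO5, PTTG1, ESPL1 and ANAPC11 were also lower in AMO1 in all libraries, with means at 37.1%, 37.6%, 48.9% and 48.4% of those in XG1. FZR1 overlapped between the lines. In all, 2 members were higher and 5 lower in AMO1, where 23.5% of the 12792 genes were higher in AMO1 and 50.6% lower without overlap, so nothing is read from these counts. The plot of the DMSO levels shows UBE2C alone among the members far from the diagonal.

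**Figure D1:**
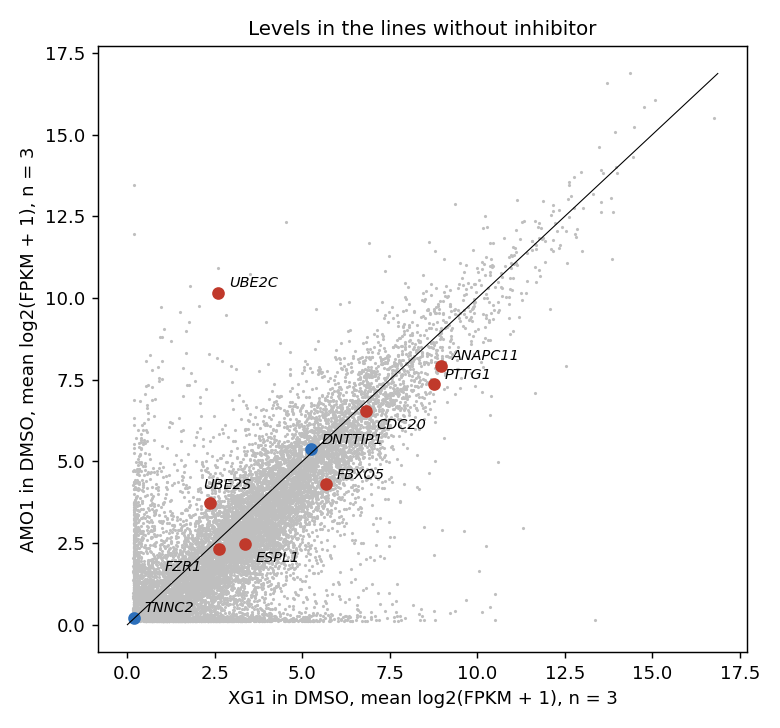
Mean log2(FPKM + 1) of each of 12792 genes in DMSO, XG1 on the horizontal and AMO1 on the vertical axis (n = 3 each), with the line of equal level; red points are the 8 members and blue points the genes next to UBE2C. UBE2C lies 7.57 log2 units above equality, while CDC20 lies 0.27 below it.

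With YKL-5-124, UBE2C fell steeply in AMO1. Its level went from 1054, 1233 and 1142 FPKM in DMSO to 166, 159.5 and 185 at 100 nM, and to 59.2, 35.1 and 63.4 at 1000 nM. The 3 groups did not overlap, and the means at 100 nM and 1000 nM were 14.9% and 4.60% of DMSO. The change at 1000 nM was -4.46 in log2(FPKM + 1) (SE 0.23, adjusted p = 5.5e-09), rank 29 of 10503 from the largest fall, and on the relative scale -3.49. At 100 nM it was -2.74 (adjusted p = 3.2e-06) and between the doses -1.72 (adjusted p = 0.0011). Less RNA per cell and fewer cells that make it cannot be told apart in these bulk libraries.

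In XG1, UBE2C stood at 7.89, 1.08 and 4.63 FPKM at 100 nM and 2.32, 4.02 and 2.47 at 1000 nM. These values overlapped each other and the DMSO values, and replicate 2 at 100 nM was the lowest of the 9. The change at 1000 nM was -0.64 (95% interval -1.68 to 0.40, adjusted p = 0.4) and at 100 nM -0.36 (95% interval -1.39 to 0.68, adjusted p = 0.67). Ordered by mean, the groups ran AMO1 DMSO, AMO1 100 nM, AMO1 1000 nM and then the 3 XG1 groups, which do not differ beyond their spread. Even at 1000 nM the lowest AMO1 library, 35.1 FPKM, was above the highest XG1 library, 7.89 FPKM.

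UBE2S fell in AMO1 as well. It went from 11.2, 15.7 and 10.00 FPKM to 1.81, 3.71 and 5.75 at 100 nM and 2.40, 2.09 and 2.27 at 1000 nM. Both treated groups lay under DMSO and overlapped each other. The changes were -1.55 at 100 nM (adjusted p = 0.001) and -2.01 at 1000 nM (adjusted p = 2.9e-05), on the relative scale -1.15 and -1.20. In XG1 it ranged from 2.32 to 5.12 FPKM over all libraries, with -0.38 at 1000 nM (95% interval -0.95 to 0.19, adjusted p = 0.36). RPL28, a ribosomal protein gene that overlaps UBE2S in RefSeq, was at 188 FPKM in AMO1 in DMSO and 106 at 1000 nM (means). The labels do not state whether reads were counted by strand; if they were not, genes that overlap share reads.

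CDC20, the coactivator of mitosis, fell in both lines. In AMO1 it stood at 89.0, 103 and 84.6 FPKM in DMSO, 16.3, 13.5 and 23.1 at 100 nM, and 8.56, 6.36 and 8.60 at 1000 nM. The 3 groups were separate. The change was -2.35 at 100 nM (adjusted p = 7.8e-06) and -3.40 at 1000 nM (SE 0.22, adjusted p = 4.2e-08), rank 93 of 10503. The further fall of -1.06 between the doses (adjusted p = 0.01) was not called on the relative scale (-0.56, adjusted p = 0.066) or without 100 nM replicate 3 (adjusted p = 0.055).

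In XG1, CDC20 stood at 110.4, 104.4 and 119 FPKM in DMSO, 84.4, 70.9 and 58.7 at 100 nM, and 34.1, 30.8 and 29.6 at 1000 nM. Again no groups overlapped. The change of -1.79 at 1000 nM (SE 0.15, adjusted p = 6.3e-05) ranked 101 of 11810 genes from the largest fall, and the mean was 28.3% of DMSO. The change of -0.65 at 100 nM (adjusted p = 0.018) was not called without DMSO replicate 1 (adjusted p = 0.064) or replicate 3 (adjusted p = 0.079). The further fall of -1.14 between the doses (adjusted p = 0.017) was not called without 1000 nM replicate 2 or 3 (adjusted p = 0.095 and 0.067) or 100 nM replicate 2 (adjusted p = 0.063).

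FZR1, the other coactivator, did not follow CDC20. In AMO1 it was at 3.80, 4.38 and 3.67 FPKM in DMSO, 4.44, 3.45 and 4.22 at 100 nM, and 2.98, 2.30 and 3.65 at 1000 nM, with the 1000 nM libraries just under DMSO. Its change at 1000 nM was -0.33 (95% interval -0.73 to 0.08, adjusted p = 0.13), but on the relative scale 0.43 (adjusted p = 0.018), so the direction depends on the scale. In XG1 it was at 6.43, 4.35 and 4.87 FPKM in DMSO, 8.84, 12.5 and 7.21 at 100 nM, and 10.2, 8.84 and 7.56 at 1000 nM. Both treated groups lay above DMSO, with changes of 0.74 and 0.67 that were not called (adjusted p = 0.058 and 0.069), and on the relative scale FZR1 rose by 0.91 and 0.83 (adjusted p = 0.012 and 0.011). MFSD12, a lysosomal membrane protein gene that overlaps FZR1, had lower means at 1000 nM, 1.08 against 4.65 FPKM in AMO1 and 2.56 against 5.76 in XG1.

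FBXO5, the inhibitor of the complex, fell in both lines at 1000 nM. It went in AMO1 from 19.6, 18.6 and 17.6 FPKM to 5.92, 4.97 and 6.09 at 100 nM and 1.30, 0.541 and 1.62 at 1000 nM. No groups overlapped, and the change at 1000 nM was -3.22 (SE 0.21, adjusted p = 4.2e-08), with -1.56 at 100 nM (adjusted p = 0.00012) and -1.66 between the doses (adjusted p = 0.00091). In XG1 it went from 50.6, 44.6 and 55.2 to 40.4, 27.6 and 33.1 and then 32.7, 23.4 and 21.2 FPKM. Treated libraries lay under DMSO but overlapped each other, and only 1000 nM passed the test (-0.95, adjusted p = 0.007; at 100 nM -0.57, adjusted p = 0.075).

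Securin and separase, the lock and the enzyme that cuts cohesin, fell in both lines. PTTG1 went in AMO1 from 151, 169 and 170.2 FPKM to 65.8, 64.5 and 56.9 at 100 nM and 38.9, 26.0 and 36.4 at 1000 nM. In XG1 it went from 397, 404 and 506 to 343, 349 and 347 and then 223, 201 and 204 FPKM. All 3 groups of each line were separate, and the changes at 1000 nM were -2.26 in AMO1 (adjusted p = 7.7e-07; on the relative scale -1.30) and -1.05 in XG1 (adjusted p = 0.00033). At 100 nM PTTG1 changed by -1.38 in AMO1 (adjusted p = 0.00025) and by -0.32 in XG1, which was not called (adjusted p = 0.11). PTTG2, a near copy of PTTG1, had means of 1.22 FPKM (AMO1) and 1.68 FPKM (XG1) in DMSO, and reads shared by near copies may be split between them. Between the doses PTTG1 fell by 0.89 in AMO1 (adjusted p = 0.014), which was not called on the relative scale (adjusted p = 0.062) or without 100 nM replicate 1 or 2 (adjusted p = 0.055 and 0.056). In XG1 it fell by 0.73 between the doses (adjusted p = 0.036), which was not called with no filter on low values (adjusted p = 0.085) or without 1000 nM replicate 2 or 3 (adjusted p = 0.19 and 0.13) or 100 nM replicate 1 or 2 (adjusted p = 0.066 and 0.090).

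ESPL1 went in AMO1 from 3.89, 4.85 and 4.82 FPKM to 0.467, 0.456 and 1.15 at 100 nM and 0.305, 0.166 and 0.215 at 1000 nM. The 3 groups were separate, and the mean at 1000 nM was 5.06% of DMSO. The change was -2.16 (adjusted p = 8.1e-07) at 1000 nM and -1.73 (adjusted p = 2.9e-05) at 100 nM. Values under the added 1 FPKM make this understate the fold, and with 0.1 FPKM added the changes were -3.83 and -2.65. In AMO1 ESPL1 reached 1 FPKM in 3 libraries, the filter for testing, only with its DMSO libraries counted. Its calls there are thus no separate support for a fall, although both were also made with no filter. In XG1 ESPL1 went from 8.61, 9.73 and 9.40 to 5.97, 7.49 and 3.86 and then 2.49, 2.40 and 2.12 FPKM, again without overlap. It fell by 1.62 at 1000 nM (adjusted p = 0.001), and the change at 100 nM was -0.63 (adjusted p = 0.092). Between the doses ESPL1 changed by -0.44 in AMO1 (adjusted p = 0.099), which was called with 0.1 FPKM added (adjusted p = 0.047). In XG1 the change between the doses was -0.99 (adjusted p = 0.12), called on the relative scale (adjusted p = 0.028) and without 100 nM replicate 3 (adjusted p = 0.023).

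ANAPC11, the RING subunit of the ligase, had the smallest change of the called members in both lines. It stood in AMO1 at 231, 248 and 251 FPKM in DMSO, 173, 181 and 189.7 at 100 nM, and 139.7, 89.2 and 155 at 1000 nM. The change at 1000 nM was -0.96 (adjusted p = 0.0015), and on the relative scale 0.02 (adjusted p = 0.86), so ANAPC11 kept pace with the median gene, which changed by -0.77. In XG1 it stood at 506, 451 and 551 FPKM, then 419, 401 and 389, then 387, 356 and 357. The groups did not overlap, and the change of -0.45 at 1000 nM (adjusted p = 0.018) was not called on the relative scale (adjusted p = 0.087) or without 1000 nM replicate 2 or 3 or DMSO replicate 1 or 3 (adjusted p = 0.070 to 0.084). ALYREF, an mRNA export factor gene that overlaps ANAPC11, went from a mean of 179 to 35.3 FPKM in AMO1 and from 280.4 to 163 in XG1.

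**Figure D2:**
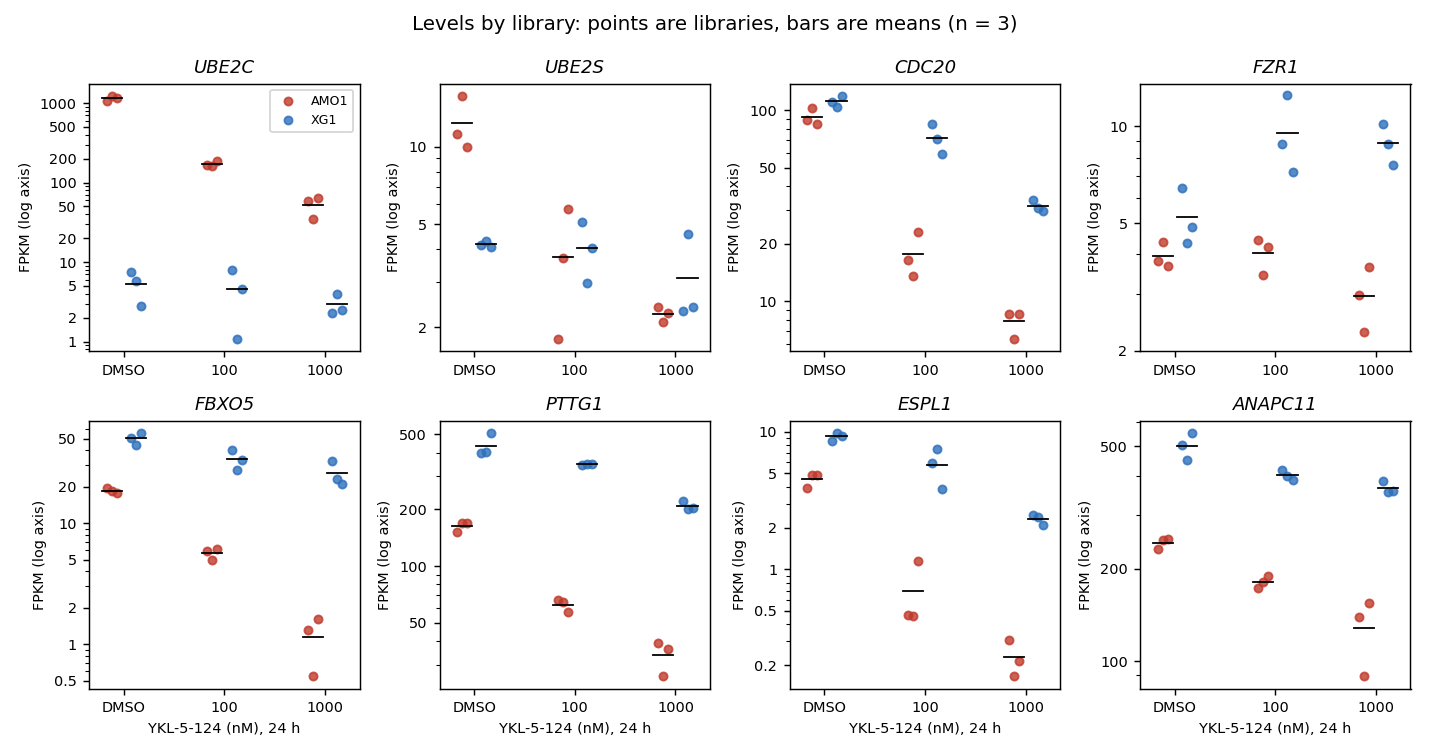
FPKM on log axes of the 8 members in every library, by dose of YKL-5-124 (DMSO, 100 nM, 1000 nM), AMO1 in red and XG1 in blue, with bars at the means of 3 libraries. UBE2C falls from a mean of 1143 to 52.6 FPKM in AMO1 and stays between 1.08 and 7.89 FPKM in XG1, while CDC20 falls in both lines.

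Counted over the members, 7 of 8 fell in AMO1 at 1000 nM, beside 65.7% of all 10503 genes tested; on the relative scale 6 fell and 1 rose, beside 24.2% that fell and 24% that rose. At 100 nM 6 of 8 fell, beside 29.5% of all genes, and on the relative scale again 6, beside 17.1%. In AMO1 at 1000 nM most genes fell on the deposited scale, so the count of members is read there against a high background. The set was chosen with earlier results of these data known and on the level of UBE2C, so the counts are descriptions. Between the doses 4 of 8 fell further, beside 23.4%, and 2 of 8 on the relative scale, beside 4.23%. In XG1 5 of 8 fell at 1000 nM, beside 13.2% of the 11810 genes tested, and on the relative scale 4 fell and 1 rose, beside 10.3% and 9.57%. CDC20, PTTG1, ESPL1, FBXO5 and ANAPC11 made up that count. At 100 nM 1 of 8 fell, CDC20, beside 10%, and on the relative scale 1 fell and 1 rose, beside 7.25% and 7.31%. Between the doses 2 of 8 fell further, CDC20 and PTTG1, beside 0.322%, and on the relative scale 3, with ESPL1 added, beside 0.804%. The 2 doses of a line share its DMSO libraries, so these counts are not independent. The counts against DMSO in AMO1 include ESPL1, which met the filter for testing only with its DMSO libraries. The median tested gene changed by -0.77 and -0.35 in AMO1 and by -0.15 and -0.15 in XG1 at 1000 nM and 100 nM. The member medians at 1000 nM were -2.21 in AMO1 and -0.80 in XG1. In the plot of changes UBE2C lies furthest left in AMO1. In XG1 CDC20 does with 1 FPKM added, but by the ratio of means ESPL1 stood lower, at 25.3% of DMSO against 28.3% for CDC20.

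**Figure D3:**
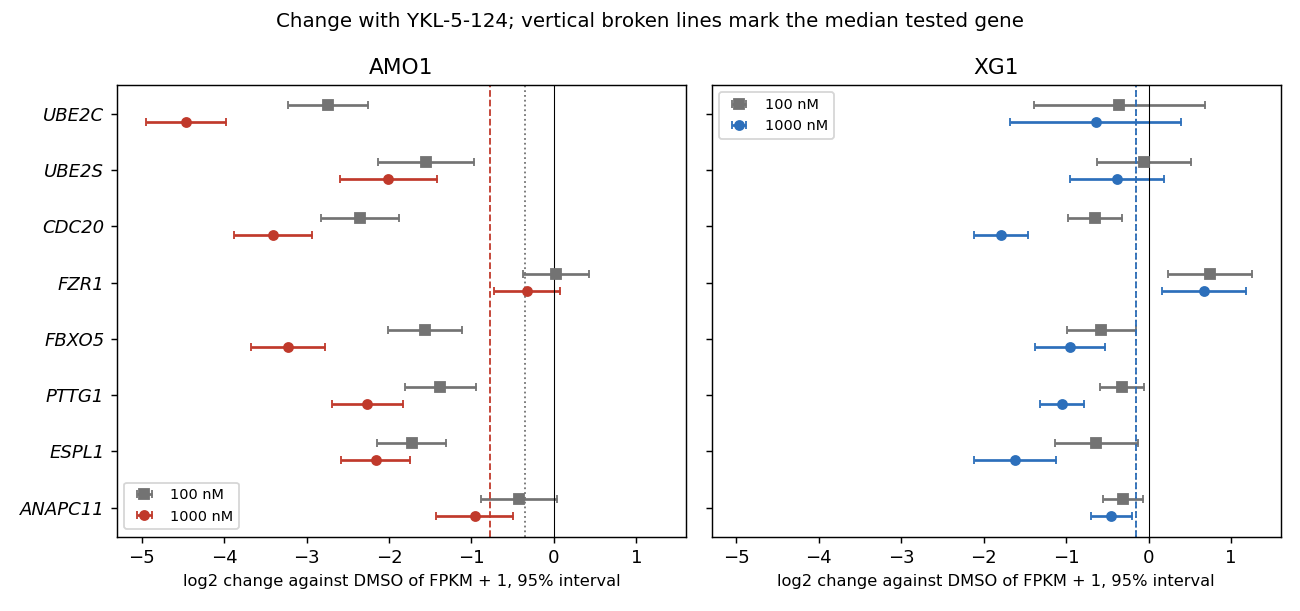
Change in log2(FPKM + 1) against DMSO with 95% intervals (limma) for the 8 members at 100 nM (gray) and 1000 nM (colored) in AMO1 and XG1, with broken lines at the median tested gene. In AMO1 the interval of UBE2C at 1000 nM is -4.94 to -3.97, and in XG1 it spans 0.

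The fall of 4 members differed between the lines at 1000 nM as XG1 minus AMO1, so a positive value is a smaller fall in XG1. UBE2S differed by 1.62 (SE 0.39, adjusted p = 0.005), CDC20 by 1.62 (SE 0.26, adjusted p = 3e-04), FBXO5 by 2.27 (SE 0.29, adjusted p = 4.3e-05) and PTTG1 by 1.22 (SE 0.21, adjusted p = 0.00052). FZR1 differed by 1.00 (adjusted p = 0.012), from 0.67 in XG1 and -0.33 in AMO1, neither of which was called. These are 5 of the 7 members tested, beside 32.8% of 12792 genes with a higher value in XG1. On the relative scale only CDC20 (0.86, adjusted p = 0.0046) and FBXO5 (1.82, adjusted p = 0.00012) remained called, beside 8.47% of all genes. ESPL1 (0.54, adjusted p = 0.14) and ANAPC11 (0.51, adjusted p = 0.093) were not called, although ESPL1 was with 0.1 FPKM added (1.89, adjusted p = 0.0042). UBE2C, given with no test since its line difference chose it, differed by 3.82.

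At 100 nM CDC20 differed by 1.70 (adjusted p = 0.00083), PTTG1 by 1.06 (adjusted p = 0.0057), ESPL1 by 1.09 (adjusted p = 0.028) and UBE2S by 1.49 (adjusted p = 0.032), 4 of 7 tested beside 5.37% of all genes. UBE2S was not called on the relative scale (adjusted p = 0.056), with 0.1 FPKM added (adjusted p = 0.057), with no filter (adjusted p = 0.080) or without any of 8 of the 12 libraries (adjusted p = 0.053 to 0.099), and kept its call without XG1 100 nM replicate 2 or 3, AMO1 100 nM replicate 3 or AMO1 DMSO replicate 3. ESPL1 was not called with no filter (adjusted p = 0.069) or without any of 8 of the 12 libraries (adjusted p = 0.052 to 0.081), and kept its call without XG1 100 nM replicate 3, XG1 DMSO replicate 3, AMO1 100 nM replicate 3 or AMO1 DMSO replicate 1. FBXO5 (0.99, adjusted p = 0.051), FZR1 (0.72, adjusted p = 0.15) and ANAPC11 (0.11, adjusted p = 0.85) were not called. UBE2C differed by 2.38, again with no test. On the relative scale the difference of CDC20 was 1.45 (adjusted p = 0.00015), so its fall was larger in AMO1 at both doses on both scales.

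Correlations between the members had a higher median in AMO1 than in XG1. Over the 9 libraries of a line, Pearson's r of log2(FPKM + 1) between 28 pairs of members had a median of 0.922 in AMO1 (0.453 to 0.995) and 0.488 in XG1 (-0.631 to 0.973). Pairs among CDC20, FBXO5, PTTG1, ESPL1 and ANAPC11 were alike in the lines, at 0.832 to 0.988 in AMO1 and 0.810 to 0.973 in XG1. The lower XG1 values, up to 0.746, were those of pairs with UBE2C, UBE2S or FZR1. These are descriptions over libraries that share dose and total level. Across the AMO1 libraries the genes most like UBE2C were BIRC5 (survivin, r = 1.00), H2AFZ, MCM2, KIAA0101 and STMN1, and most like CDC20 were BLM (r = 0.997), KIF20A, KIF2C, SLC7A1 and DTL. Over all 18 libraries those of UBE2C were KCNS3 (r = 0.991), ZBTB32, SLCO3A1, YWHAQ and ZBTB38. An r of UBE2C over both lines carries the line gap by which UBE2C was selected, so nothing is read from that list. KCNS3 had means of 134 FPKM in AMO1 and 0.445 in XG1 in DMSO, and YWHAQ 948 and 79.8. BIRC5, the closest within AMO1, had 74.6 FPKM in AMO1 and 86.7 in XG1. Those of CDC20 over all 18 were TOP2A (r = 0.988), SKA3, CDT1, RRM1 and SMC4.

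The promoters of CDC20, PTTG1 and ESPL1, chosen from the 6 matched members that fell, and of FZR1, whose changes were not called on the deposited scale, are shown so that shared elements can be read beside the changes. The set of RefSeq (GRCh38.p14) promoter windows used here held entries for 7 of the 8 symbols, all but UBE2C. Each is the 250 bases before a start site, 5' to 3' on the gene's strand, with 2 elements in capitals: the CHR, a cell cycle element (TTTGAA or TTCGAA), and the CCAAT box (CCAAT), both searched on both strands.

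CDC20, chr1:43358731-43358980, + strand: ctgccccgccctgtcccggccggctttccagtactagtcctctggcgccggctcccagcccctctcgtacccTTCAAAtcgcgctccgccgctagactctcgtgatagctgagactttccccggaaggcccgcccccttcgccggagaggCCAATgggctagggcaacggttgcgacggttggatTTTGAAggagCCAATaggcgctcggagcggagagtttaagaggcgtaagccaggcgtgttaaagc

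PTTG1, chr5:160421605-160421854, + strand: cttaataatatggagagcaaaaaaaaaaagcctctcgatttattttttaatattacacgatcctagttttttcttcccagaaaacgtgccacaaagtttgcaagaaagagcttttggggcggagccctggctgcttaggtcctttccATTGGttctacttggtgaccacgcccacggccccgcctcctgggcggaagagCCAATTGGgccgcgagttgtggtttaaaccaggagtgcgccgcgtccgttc

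ESPL1, chr12:53268049-53268298, + strand: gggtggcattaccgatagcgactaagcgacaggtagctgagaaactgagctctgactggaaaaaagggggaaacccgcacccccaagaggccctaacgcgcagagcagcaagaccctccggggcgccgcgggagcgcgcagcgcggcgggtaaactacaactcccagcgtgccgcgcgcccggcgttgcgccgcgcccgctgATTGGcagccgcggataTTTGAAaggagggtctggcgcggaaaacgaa

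FZR1, chr19:3506061-3506310, + strand: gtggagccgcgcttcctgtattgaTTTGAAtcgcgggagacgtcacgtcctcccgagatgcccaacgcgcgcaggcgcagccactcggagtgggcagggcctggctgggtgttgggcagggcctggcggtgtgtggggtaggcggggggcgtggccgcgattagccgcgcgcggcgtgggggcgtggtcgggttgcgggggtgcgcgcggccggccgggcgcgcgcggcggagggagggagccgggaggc

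In CDC20 a CHR stood from -65 to -60 and a CCAAT box from -55 to -51 before the start, with a further CCAAT box at -100 and a CHR match on the other strand at -178. ESPL1 had a CCAAT box on the other strand from -48 to -44 and a CHR from -31 to -26. FBXO5, not printed, held no match at its start 1. At its start 2 it held a CHR match on the other strand from -40 to -35 and 4 CCAAT matches, of which the 2 furthest from the start overlap. UBE2S and ANAPC11, also not printed, held CCAAT matches and no CHR match. Start 2 of FBXO5 and the start of UBE2S were not found in the transcripts of a further gene reference, GENCODE, while start 1 of FBXO5 was. PTTG1, which fell in both lines, held 3 CCAAT matches, of which the 2 nearest the start overlap, and no CHR match, while FZR1 held a CHR match from -226 to -221 and no CCAAT match. The CHR letters were in 4 of the 13 start sites of the 7 matched genes and the CCAAT box in 9, beside 14.3% and 32% of 35116 RefSeq promoter windows. By gene they were in 4 and 6 of the 7. Windows of PTTG1 and of ANAPC11 overlap and share CCAAT matches, so the 13 are not separate promoters and nothing is read from these counts. The letters of an E2F site (TTTCCCGC, TTTCGCGC, TTTGCCGC or TTTGGCGC) were in none of the 13, beside 2.79%. A match here describes letters and shows neither binding nor use.

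The wider pathway was described from 5 gene lists. In AMO1, ANAPC1, TTK, KNTC1, ANLN and STAG1 reached 1 FPKM in 3 libraries only with DMSO counted. They were tested because they were high in DMSO, and the AMO1 counts of falls below include them. Of the other APC/C subunits, 11 of 11 tested fell in AMO1 at 1000 nM (median -0.95, all genes -0.77), beside 65.7% of all genes. Only 2 fell on the relative scale, ANAPC15 and CDC23, beside 24.2%, and ANAPC2 and CDC26 were too low to test. In XG1 2 of 11 fell (median -0.20), a share near the 13.2% of all genes. ANAPC15 fell in both lines, from 23.2 to 5.95 FPKM in AMO1 (-1.85, adjusted p = 2.7e-05) and by 0.76 in XG1. The ligase subunits as a list therefore stood near the median gene (-0.15 in XG1), as ANAPC11 did in AMO1. In XG1 ANAPC11 changed by -0.45, further than the list or the median gene.

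Of the spindle assembly checkpoint, which holds CDC20 inactive until chromosomes are attached, 10 of 11 fell in AMO1 (median -2.28), beside 65.7% of all genes, and 9 on the relative scale, beside 24.2%. In XG1 8 of 11 fell (median -0.94), beside 13.2%. MAD2L1, a checkpoint protein that binds CDC20, went from 60.6 to 3.14 FPKM in AMO1 (-3.94). ZWINT went from 77.8 to 6.98 (-3.36) and TTK from 7.50 to 0.387 (-2.64). Adjusted p of these genes ran from 4.2e-08 to 5e-07 by limma. TTK and KNTC1 met the filter for testing only with their DMSO libraries, so their calls are no separate support for a fall. BUB1B fell most in XG1, from 41.8 to 12.3 FPKM (-1.70). MAD1L1, which anchors MAD2L1, was at means of 22.2 and 22.8 FPKM in AMO1 and rose only on the relative scale.

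Of APC/C substrates outside the members, 23 of 23 fell in AMO1 at 1000 nM on both scales (median -3.19), beside 65.7% of all genes and 24.2% on the relative scale. ANLN, among them, met the filter for testing only with its DMSO libraries. In XG1 22 of 23 fell (median -1.04), beside 13.2%, and 19 on the relative scale, beside 10.3%. RRM2, a ribonucleotide reductase subunit, went from 196 to 5.83 FPKM in AMO1 (-4.86), the mitotic kinase AURKB from 463 to 23.0 (-4.28), and the replication licensing factor CDC6 from 37.9 to 1.54 (-3.94). AURKB also fell most in XG1, from 357 to 80.7 FPKM (-2.13). At 100 nM 23 of 23 substrates fell in AMO1, beside 29.5% of all genes, and 3 of 23 in XG1, a share near the 10% of all genes.

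The list of separase targets and cohesin also held genes that act on cohesin, such as NIPBL and SGOL1, and the securin partner PTTG1IP. Of this list, 12 of 12 genes fell in AMO1 (median -1.37), beside 65.7% of all genes. On the relative scale 8 fell and 2, NIPBL and PTTG1IP, rose, beside 24.2% and 24%. In XG1 5 of 12 fell (median -0.64), beside 13.2%. SGOL1, which shields centromeric cohesin, went from 9.64 to 0.564 FPKM in AMO1 (-2.78) and from 24.2 to 8.46 in XG1 (-1.41), and SGOL2 and RAD21, the cohesin subunit that separase cuts, fell by 2.11 and 2.06 in AMO1. Of the other APC/C regulators, 3 of 5 tested fell in AMO1 (median -0.69), beside 65.7% of all genes, namely USP37 (-1.56), MAD2L2 (-1.52) and UBE2D1 (-0.69). On the relative scale the median was 0.13, USP37 and MAD2L2 fell, OTUD7B rose, and UBE2D1 changed sign and was not called (0.13, adjusted p = 0.52). In XG1 0 of 7 fell by limma, beside 13.2% of all genes, and nothing is read from so small a count. The plot of the lists places the members between the substrates and the ligase subunits in AMO1.

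**Figure D4:**
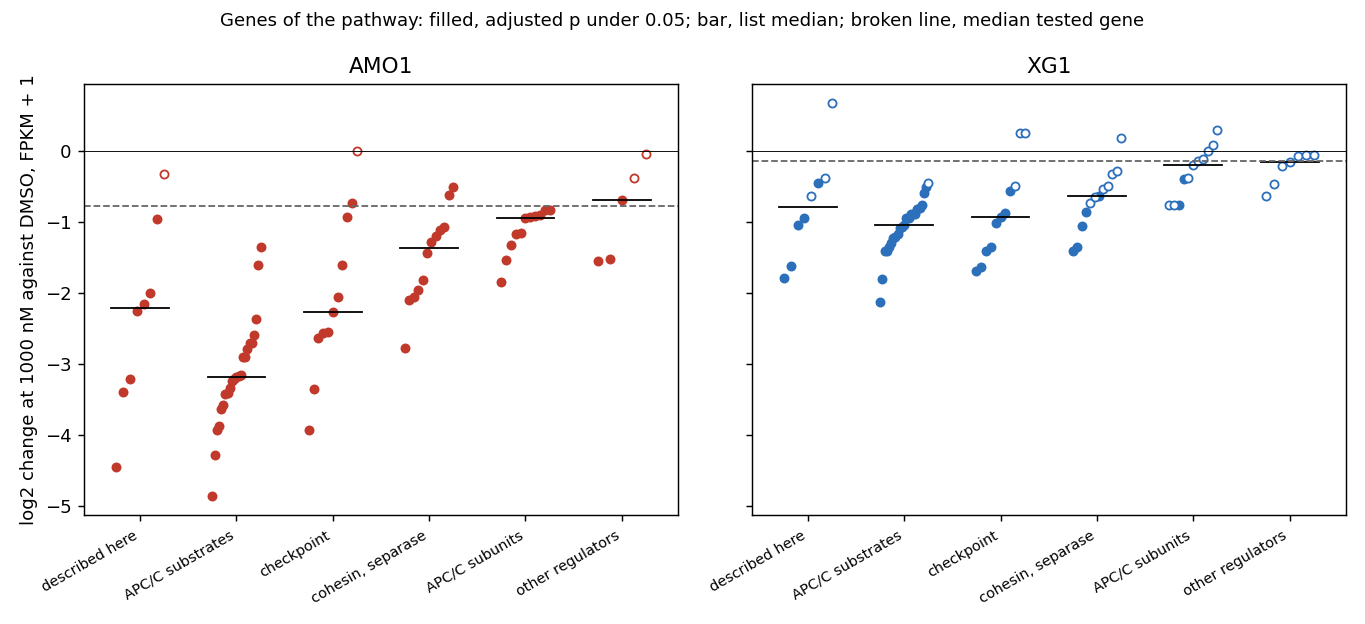
Change in log2(FPKM + 1) at 1000 nM against DMSO for each gene of the members (labelled as described here) and 5 pathway lists in AMO1 (left) and XG1 (right); filled points passed adjusted p under 0.05, bars are list medians and the broken line the median tested gene. In AMO1 the medians run from -3.19 for substrates to -0.69 for other regulators.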

How the data were processed

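Per the labels' protocols, total RNA of 18 samples was made into QuantSeq 3' libraries. Per the submitters' processing notes, reads were handled with HISAT2 and Cuffnorm on hg19; the notes name no version. The values deposited by the authors are FPKM per gene, with 92 ERCC spike-ins. Summed spike-ins had group means of 171365 to 184682 FPKM, from which a rescaling to them is inferred. The files hold no zeros.

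Samples were grouped by line and dose. Genes that reached 1 FPKM in 3 or more libraries of a fit were tested as log2(FPKM + 1) with limma 3.58.1 (R 4.3.3; trended prior variance, two-sided, Benjamini-Hochberg adjusted over all genes, threshold 0.05), on the 9 libraries of a line, or all 18 for differences of response. All 8 members passed the filter in each line. The filter is met by a gene high in 1 group only, and ESPL1 met it in AMO1 only with its DMSO libraries counted. The test was tried on simulated data. Tables and figures were made with Python 3.11.15, pandas 2.3.3, numpy 2.4.6, scipy 1.17.1 and matplotlib 3.10.9. Alternatives were an added 0.1 FPKM, no filter, median-ratio size factors, a replicate block and leaving out each library. Members and lists were chosen with earlier results of these data known. Named genes were all members, from each list the 3 largest called changes at 1000 nM in AMO1 and the largest in XG1, the 5 most alike genes by r, and neighbours of UBE2C. Genes overlapping the other members, near copies and list genes that changed sign by scale were named after values were seen. Replicate Spearman correlations were 0.934 to 0.974. An exact test of 3 against 3 libraries cannot go below p = 0.1, so none is given.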

Additional observations from a re-analysis of the deposited data

Results flagged for a closer look

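The responses of several members differed between the lines by a test of the difference itself (limma interaction, XG1 minus AMO1, log2). At 1000 nM the differences were 1.62 for UBE2S, 1.62 for CDC20, 1.00 for FZR1, 2.27 for FBXO5 and 1.22 for PTTG1. At 100 nM they were 1.49 for UBE2S, 1.70 for CDC20, 1.06 for PTTG1 and 1.09 for ESPL1. On the relative scale UBE2S, FZR1 and PTTG1 at 1000 nM and UBE2S at 100 nM were no longer called.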

How the results depend on the processing

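Of the 704 member changes recomputed under the alternatives, 632 kept direction and call, 43 lost the call, 13 gained it and 16 changed sign. With no filter on low values the genes called were 1944 for AMO1 at 100 nM (3386 with it), 521 between the AMO1 doses (2482), 1153 and 674 for XG1 at 1000 nM and 100 nM (1994 and 1474) and 9 between the XG1 doses (46), and members called were 1 between the XG1 doses (2) and 2 for the 100 nM response difference (4). With median-ratio size factors they were 627 between the AMO1 doses, 115 between the XG1 doses, and 2136 (4390) and 1228 (797) for the response differences at 1000 nM and 100 nM, and members called were 2 between the AMO1 doses (4), 2 in XG1 at 100 nM (1), 3 between the XG1 doses (2) and 2 for the 1000 nM response difference (5). These size factors turned the sign of FZR1 (0.43) and ANAPC11 (0.0177) in AMO1 at 1000 nM, ANAPC11 (0.0126) at 100 nM, FZR1 (0.0703) and ANAPC11 (0.00512) between the AMO1 doses, UBE2S in XG1 at 100 nM (0.10) and the response difference of ANAPC11 (-0.33 and -0.16).

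Leaving out each library in turn gave 7 to 7 members and 6067 to 7201 genes for AMO1 at 1000 nM, 6 to 6 and 1812 to 2613 at 100 nM, and 3 to 5 and 519 to 3437 between the doses. For XG1 it gave 4 to 5 and 1047 to 1564 at 1000 nM, 0 to 2 and 571 to 1876 at 100 nM, and 0 to 3 and 2 to 82 between the doses. For the response differences it gave 5 to 6 and 3227 to 4771 at 1000 nM, and 2 to 4 and 430 to 1136 at 100 nM. It turned the sign of FZR1 in AMO1 at 100 nM (-0.0360 to 0.11), UBE2C (-0.81 to 0.23) and UBE2S (-0.21 to 0.10) in XG1 at 100 nM, and FZR1 (-0.23 to 0.13) and UBE2C (-0.87 to 0.17) between the XG1 doses.

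The replicate numbers were not taken to pair libraries, since the labels do not say that they do. The correlation of deviations from group means was compared between libraries of the same and of different numbers. Over 9 same-number pairs this correlation had a median of -0.00157 in AMO1 (-0.178 to 0.125) and 0.0452 in XG1 (-0.0441 to 0.157). The medians between different numbers were 0.0199 and -0.0230. The own number was the best match in 5 of 18 cases in AMO1 and 12 of 18 in XG1, a hint from the data of shared deviation in XG1. A replicate block gave 1461 genes called between the AMO1 doses, and 5 members for the 100 nM response difference, where FBXO5 was added (adjusted p = 0.036); it changed no other member's call. The cause of these shifts was not tested. Read depth is unknown, so low values carry no counting error here.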

Other observations

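TNNC2, the troponin gene beside UBE2C, was chosen here after its values were seen. In AMO1 it stood at 0.292, 0.103 and 0.0945 FPKM in DMSO, 0.953, 0.291 and 1.75 at 100 nM, and 2.49, 1.998 and 1.84 at 1000 nM, where all libraries were above DMSO. In XG1 it was between 0.124 and 0.150 FPKM in DMSO and at 0.138, 0.570 and 1.72 at 1000 nM. DNTTIP1, on the other side of UBE2C, had means of 24.1 and 21.3 FPKM in AMO1 at 100 nM and 1000 nM, against 40.4 in DMSO. In AMO1 TNNC2 was thus higher at 1000 nM and DNTTIP1 lower at both doses, and no test was run on them. At 100 nM the lowest TNNC2 library (0.291) lay just under the highest in DMSO (0.292). The median tested gene in AMO1 also fell, with changes of -0.35 at 100 nM and -0.77 at 1000 nM in log2(FPKM + 1). A lower level of DNTTIP1 is therefore not particular to it.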
